A study of Homo sapiens with 11 samples.

Results

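Small noncoding RNAs that guide or carry out steps of RNA processing were measured in A375 xenografts on a human expression array. The group was defined by name and by detection: probes annotated to a SNORA, SNORD, SCARNA, RNU or RNY gene, or to RMRP, RPPH1 or RN7SK, with a detection p-value below 0.05 on at least 1 array. Of 327 such probes among 47323 on the array, 210 passed (64.2%, against 68.5% of all probes with 1 gene symbol), and they stood for 206 of the 14886 genes tested. The detection p-values chose the members, so the detection shares below are a description with no test. They also decide where a fold is given only as a lower bound.

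The A375 line, a human melanoma line with a BRAF V600E mutation, was grown under the skin of 6-week-old female CD1 athymic mice, which lack T cells but keep myeloid cells. Tumours were taken after 12 days of vehicle (1% methylcellulose, 3 arrays), PLX4720, a BRAF inhibitor given by daily gavage at 60 mg/kg (3 arrays), bevacizumab, an antibody against human VEGF-A given by intraperitoneal injection at 10 mg/kg 3 times a week (3 arrays), or both drugs (COMBO, 2 arrays). The array carries human probes but the tumour holds mouse stroma, and many of these RNAs are nearly identical in both species, so human and mouse signal cannot be told apart for them. In such bulk RNA, fewer cells of a type and less RNA per cell cannot be told apart either.

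Small nucleolar RNAs (snoRNAs) guide the chemical modification of ribosomal RNA: those of the box C/D type (SNORD) direct methylation of the ribose, and those of the box H/ACA type (SNORA) direct the conversion of uridine to pseudouridine. Small Cajal body RNAs (SCARNA) do the same for the spliceosomal RNAs (RNU genes), which recognise introns. Most human snoRNAs are not transcribed on their own but are cut from the introns of host genes, many of which encode ribosomal or nucleolar proteins. RNA polymerase III makes the Y RNAs (RNY genes), which bind the Ro60 and La proteins, the RNA subunits of RNase P (RPPH1) and RNase MRP (RMRP), 7SK (RN7SK), which holds the elongation factor P-TEFb inactive, U6 (RNU6-1) and the minor-spliceosome U6atac (RNU6ATAC). Labelling by the TotalPrep kit starts from poly(A) tails, which the mature forms of most of these RNAs lack. Whether a probe read the mature RNA, a precursor or a host transcript was not tested.

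How fully each class was seen differed. Box H/ACA snoRNAs had 83 of 102 probes detected (81.4%) and box C/D snoRNAs 88 of 178 (49.4%). Cajal body RNAs had 18 of 24, spliceosomal RNAs 12 of 13, Y RNAs 4 of 4, and RNase P, RNase MRP and 7SK RNA together 4 of 4. A further probe, for a U105 RNA, was detected out of 2. Of the box C/D snoRNAs, 4 families that sit in imprinted tandem clusters, SNORD113, SNORD114, SNORD115 and SNORD116, had 5 of 31 probes detected (16.1%). The other box C/D snoRNAs had 83 of 147 (56.5%), still below the box H/ACA share. Next to the detection limit, SNORA60 (lowest detection p-value 0.048) and SNORD113-3 (0.0494) were just inside, while SNORD71 and SNORD114-27 (0.0532 each) were just outside.

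Once detected, the small RNAs were seen on fewer arrays than other genes. Of the 206, 84 were detected on all 11 arrays (40.8%, against 65.7% of all genes tested), 89 on 2 to 10 arrays and 33 on 1 array. Of those seen on 1 array, 12 were seen on PLX4720 array 3. A total of 35 were detected within 1 arm only. The counts on 1 array and in 1 arm were not taken over all genes, so no background stands beside them. The number detected per array ran from 125 on PLX4720 array 1 to 147 on bevacizumab array 3.

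Levels below are log2 intensities after background correction and normalization, and each change is a difference on that scale. Over all genes, arrays of 1 arm correlated at 0.988 to 0.989 under vehicle, 0.926 to 0.941 under PLX4720, 0.957 to 0.988 under bevacizumab and 0.987 under COMBO, so the PLX4720 arrays differed most among themselves. Human-probe signal for fibroblast genes also moved with the arms: COL1A1, COL1A2, DCN, LUM and POSTN all rose under PLX4720 (5 of 5 called, median 2.65), and their summed level was 11700 to 16800 there and 6290 to 16000 under COMBO, against 1760 to 4130 under vehicle and 1100 to 1960 under bevacizumab. Of the leukocyte genes, AIF1 rose under PLX4720 (1.90, adjusted p = 0.0135) while CD68 differed by -1.13 ± 0.36 (adjusted p = 0.152), the summed level of the 4 measured was 3490 to 5450 there and 5480 to 6310 under vehicle, and PTPRC was not detected. The endothelial genes CDH5 and KDR were not detected. PECAM1, detected on 11 arrays, had a level of 99.5 to 144 under vehicle, 63.9 to 87.9 under PLX4720, 93.2 to 129 under bevacizumab and 56.8 to 81.5 under COMBO, and differed from vehicle by -0.80 ± 0.25 under PLX4720 (adjusted p = 0.144) and -0.89 ± 0.28 under COMBO (adjusted p = 0.529). The melanocyte genes MLANA and TYR were not detected and PMEL was detected on 1 array, while MITF and SOX10, on 11 arrays each, differed by 0.72 ± 0.32 and 0.60 ± 0.37 under PLX4720 (adjusted p = 0.31 and 0.478), and the summed level of these 3 was 2010 to 3470 under vehicle and 3160 to 5330 under PLX4720. The part of these cells in the results below was not tested.

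With 1 spread fitted over the 4 arms, PLX4720 was the only arm in which single small RNAs were called against vehicle. Against vehicle, 6 of 206 were called at an adjusted p below 0.05 (2.91%), beside 2.28% of all genes tested. RNY5, RNU6ATAC and SNORA74A were higher (1.46%, beside 1.42% of all genes), and SNORD16, SNORD67 and SNORD95 were lower (1.46%, beside 0.853%). The share was therefore close to the background. SNORA74A was detected on the 3 PLX4720 arrays alone, so it passed the detection limit through the arm in which it was higher. SNORD67 was detected on no PLX4720 array, so it passed through arms in which it was higher. The rule in the study's methods, a log2 change of at least 1 at an unadjusted p below 0.01, called 12 (5.83%, beside 4.76% of all genes). The count depended on single arrays: it was 1 without any one of the vehicle arrays (RNY5 in each case, beside 0.43% to 0.705% of all genes), 2 without PLX4720 array 1 (beside 0.867% of all genes) and 3 without bevacizumab array 3 (beside 1.17%). Without PLX4720 array 2 it was 26 (12.6%), beside 5.64% of all genes. RNY5 was the only small RNA called in each of the 24 alternative settings. Calls were not confined to PLX4720 in all of them. In fits of only the arrays of both arms, PLX4720 had 1 (0.485%, beside 0.302% of all genes) and COMBO 5 (2.43%, beside 1.65%). With array weights PLX4720 had 4 (1.94%, beside 1.68%) and COMBO 6 (2.91%, beside 2.7%).

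Among the Y RNAs, RNY5 had the largest difference between PLX4720 and vehicle of the 206. It read 9.43, 8.94 and 7.85 on the vehicle arrays, 12.92, 12.63 and 12.88 under PLX4720, 8.49, 7.00 and 6.28 under bevacizumab, and 9.81 and 10.05 under COMBO. The PLX4720 arrays lay close together and far above all others, whereas the vehicle and bevacizumab arrays were scattered and overlapped. PLX4720 raised RNY5 by 4.07 ± 0.52 (SE; 16.8-fold, adjusted p = 0.00389), and the alternatives gave 3.51 to 4.41. Under COMBO the difference from vehicle was 1.19 ± 0.58 (adjusted p = 1), although both COMBO arrays lay above the 3 vehicle arrays.

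RNY4, detected on 10 arrays, had the same order of arms in part. Its values were 6.43, 6.49 and 6.65 under vehicle, 8.29, 7.63 and 8.73 under PLX4720, 7.33, 6.09 and 5.82 under bevacizumab, and 5.43 and 5.83 under COMBO. All PLX4720 arrays lay above all others, and both COMBO arrays lay below vehicle. The difference between PLX4720 and vehicle was 1.70 ± 0.39 (adjusted p = 0.0502), just outside the threshold, and it was called in 10 of 24 alternatives.

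The other Y RNAs diverged. RNY1 read 7.64, 7.96 and 7.52 under vehicle, 8.67, 8.81 and 9.60 under PLX4720, 8.19, 6.95 and 6.07 under bevacizumab, and 6.83 and 7.04 under COMBO. Its PLX4720 arrays did not overlap those of any other arm, but the difference of 1.32 ± 0.45 from vehicle missed the threshold (adjusted p = 0.178). RNY3 read 8.95, 8.96 and 8.64 under vehicle, 9.10, 9.44 and 7.58 under PLX4720, 8.22, 9.50 and 10.00 under bevacizumab, and 9.47 and 9.46 under COMBO. The arms overlapped, and PLX4720 differed from vehicle by -0.14 ± 0.50 (adjusted p = 0.926). In the RefSeq gene order the 4 genes are neighbours, in the order RNY5, RNY4, RNY3 and RNY1 with a long noncoding RNA between RNY4 and RNY3. None of the 6 proteins that bind Y RNAs was called in PLX4720 against vehicle, beside 2.28% of all genes. RO60 differed by 0.19 ± 0.32 and SSB, which encodes La, by 0.23 ± 0.22.

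**Figure D1:**
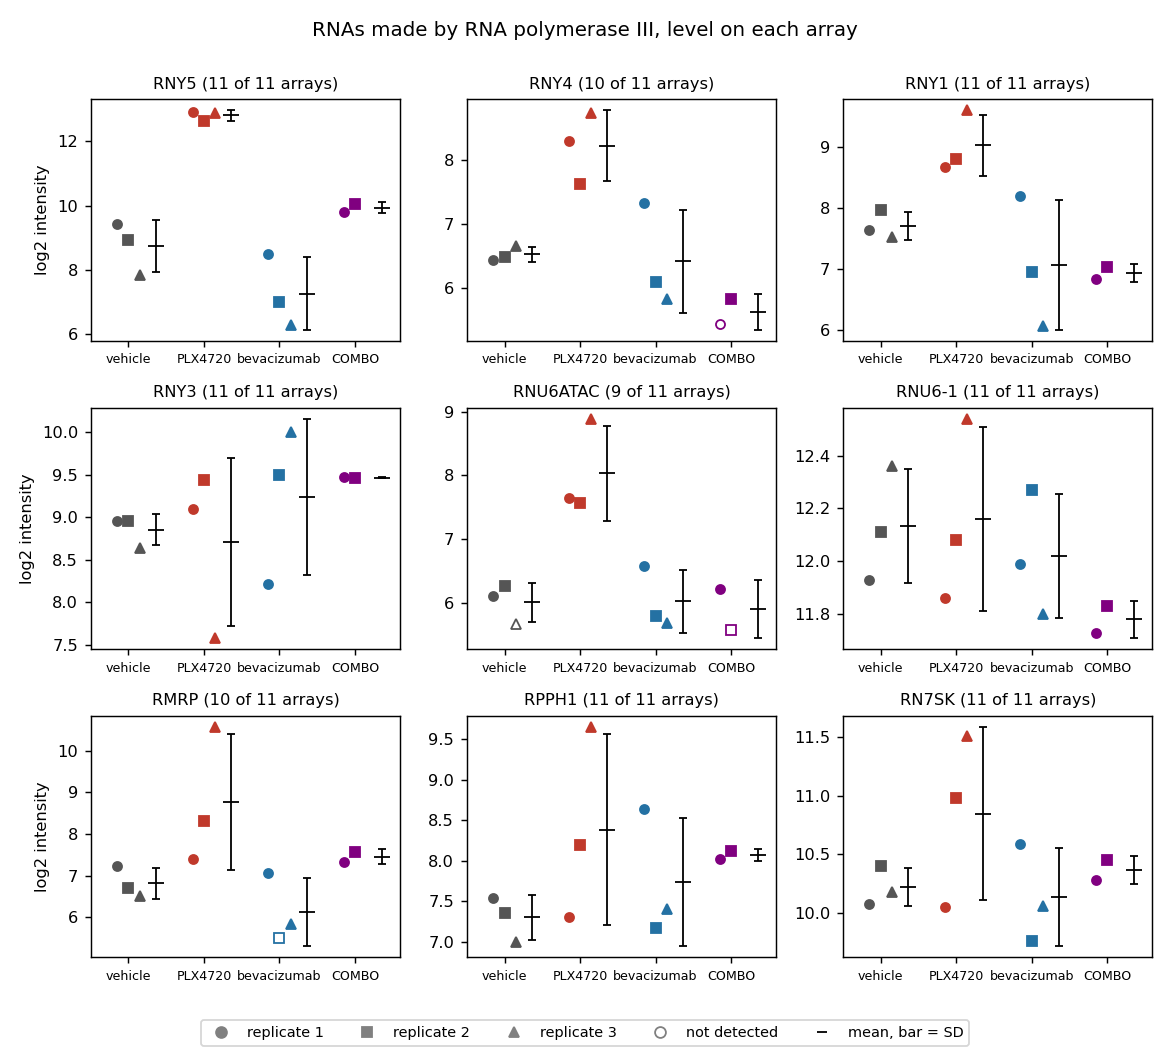
Level of the RNAs made by RNA polymerase III on each array (log2 intensity) by arm, with the arm mean and SD beside the points, open points where the probe was not detected, and the number of arrays with detection in each title. RNY5 sits between 12.63 and 12.92 on the PLX4720 arrays and at most at 10.05 on every other array, while RMRP runs from 7.40 to 10.57 within the PLX4720 arm.

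RNU6ATAC, the U6-type RNA of the minor spliceosome, rose under PLX4720. It was detected on 9 arrays and read 6.10, 6.26 and 5.67 under vehicle, 7.64, 7.56 and 8.89 under PLX4720, 6.58, 5.80 and 5.68 under bevacizumab, and 6.22 and 5.58 under COMBO. No PLX4720 array overlapped another arm, and the rise was 2.02 ± 0.39 (4.06-fold, adjusted p = 0.0271). A second probe for the gene gave 1.75 ± 0.39 (adjusted p = 0.0445 when every probe was tested). The call was lost in 5 of 24 alternatives, among them leaving out vehicle array 1, 2 or 3, with an adjusted p of up to 0.143.

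RMRP, the RNA of RNase MRP, and RPPH1, that of RNase P, were spread widely under PLX4720. RMRP read 7.24, 6.70 and 6.52 under vehicle, 7.40, 8.31 and 10.57 under PLX4720, 7.06, 5.50 and 5.83 under bevacizumab, and 7.33 and 7.58 under COMBO. RPPH1 read 7.54, 7.36 and 7.00 under vehicle, 7.31, 8.19 and 9.65 under PLX4720, 8.64, 7.17 and 7.40 under bevacizumab, and 8.02 and 8.12 under COMBO. For both RNAs PLX4720 array 3 was the highest of all 11, and PLX4720 array 1 lay close to vehicle. The differences from vehicle, 1.94 ± 0.67 for RMRP (adjusted p = 0.184) and 1.09 ± 0.53 for RPPH1 (adjusted p = 0.354), did not pass. None of the 10 proteins of these enzymes was called, beside 2.28% of all genes, and their median difference was 0.14.

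RN7SK and RNU6-1 differed less between the arms. RN7SK read 10.08, 10.40 and 10.18 under vehicle, 10.05, 10.98 and 11.51 under PLX4720, 10.59, 9.76 and 10.06 under bevacizumab, and 10.28 and 10.45 under COMBO, a difference of 0.62 ± 0.35 between PLX4720 and vehicle (adjusted p = 0.426). A second RN7SK probe gave 1.70 ± 0.50 (adjusted p = 0.116 when every probe was tested), so the probes differed in size but not in direction. RNU6-1, whose probe had the highest mean signal of the small RNAs, read 11.93, 12.11 and 12.36 under vehicle, 11.86, 12.08 and 12.54 under PLX4720, 11.99, 12.27 and 11.80 under bevacizumab, and 11.73 and 11.83 under COMBO. Its arms overlapped, with a difference of 0.03 ± 0.24 under PLX4720 (adjusted p = 0.968).

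As a group, 8 of the 9 RNAs made by RNA polymerase III had a higher mean under PLX4720 than under vehicle, with a median difference of 1.32 beside 0.06 for all genes tested. With the arrays scaled to 1 median, where the median of all genes shifted to 0.24, RNY3 was higher too and the count was 9 of 9; without vehicle array 1 it was 7. On single arrays the median over these RNAs, relative to the vehicle mean, was 0.57, 1.11 and 2.21 under PLX4720, 0.37, -0.43 and -0.33 under bevacizumab, and 0.21 and 0.23 under COMBO. The same arrays over all genes gave 0.15, -0.04 and 0.01 under PLX4720. PLX4720 array 3 carried the highest value of all 11 arrays for 7 of the 9, against 17% of all genes. Of the 11 subunits of RNA polymerase III measured, none was called in PLX4720 against vehicle (median difference 0.17), beside 2.28% of all genes.

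The spliceosomal RNAs did not move as 1 group. RNU11, of the minor spliceosome, read 7.23, 6.87 and 7.01 under vehicle, 7.78, 8.24 and 9.13 under PLX4720, 8.09, 6.68 and 6.36 under bevacizumab, and 6.61 and 6.51 under COMBO. It lay above vehicle on all PLX4720 arrays, by 1.35 ± 0.44 (adjusted p = 0.160), and its second probe gave 1.56 ± 0.49 (adjusted p = 0.136 when every probe was tested). RNU4ATAC, which pairs with U6atac, read 6.81, 6.91 and 7.38 under vehicle, 7.58, 7.17 and 7.73 under PLX4720, 7.68, 6.76 and 5.80 under bevacizumab, and 6.67 and 6.57 under COMBO. Its difference of 0.46 ± 0.40 was within the spread (adjusted p = 0.622).

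The U4 RNA genes of the major spliceosome lay the other way. RNU4-1, detected on 7 arrays, read 7.99, 7.68 and 8.28 under vehicle, 5.17, 5.39 and 7.45 under PLX4720, 9.26, 7.31 and 6.26 under bevacizumab, and 5.05 and 5.19 under COMBO. RNU4-2 read 8.22, 7.75 and 8.28 under vehicle, 6.61, 5.85 and 7.69 under PLX4720, 9.32, 7.39 and 6.51 under bevacizumab, and 5.97 and 6.01 under COMBO. These genes are near-identical copies, so their probes may read shared RNA and do not count as separate evidence. Both were below every vehicle array on every PLX4720 and COMBO array. The differences under PLX4720, -1.98 ± 0.71 and -1.37 ± 0.63, missed the threshold (adjusted p = 0.201 and 0.318), although RNU4-1 was called without PLX4720 array 3 (-2.70). Under COMBO, RNU4-1 was not detected on either array and was at least 4.87-fold lower than vehicle (-2.86 ± 0.80, adjusted p = 0.376), and RNU4-2 differed by -2.09 ± 0.70 (adjusted p = 0.609).

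The U1 RNA genes, another pair of near copies, were lowest under COMBO. RNU1-1 read 11.11, 11.14 and 11.02 under vehicle, 10.51, 11.59 and 11.41 under PLX4720, 11.56, 10.60 and 10.23 under bevacizumab, and 9.93 and 9.48 under COMBO. RNU1-3 read 11.74, 11.50 and 11.28 under vehicle, 10.98, 11.81 and 12.06 under PLX4720, 11.83, 10.97 and 9.95 under bevacizumab, and 10.13 and 9.59 under COMBO. Both COMBO arrays lay below all vehicle and PLX4720 arrays. The differences from vehicle were -1.39 ± 0.41 for RNU1-1 and -1.65 ± 0.49 for RNU1-3, and neither passed over all genes (adjusted p = 0.429 and 0.436). Over the 10 spliceosomal RNAs, 9 had a lower mean under COMBO than under vehicle, with a median of -0.44 beside -0.02 for all genes. Under bevacizumab alone 8 of the 10 were lower than vehicle, with a median of -0.24 beside -0.02, and the median under PLX4720 was 0.10. Relative to the vehicle mean, the median on single arrays was -0.30, 0.22 and 0.48 under PLX4720 and 0.57, -0.32 and -0.77 under bevacizumab. Under COMBO it was -0.41 and -0.49. The U1 and U4 pairs each enter these counts as separate genes.

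RNU2-1 and RNU5A-1 were each detected on only 2 arrays and stayed near background. RNU2-1 read 5.12, 5.69 and 5.03 under vehicle, 5.37, 5.67 and 6.71 under PLX4720, 4.99, 5.25 and 5.05 under bevacizumab, and 5.63 and 4.99 under COMBO. RNU5A-1 read 5.40, 5.91 and 5.42 under vehicle, 5.25, 4.90 and 5.60 under PLX4720, 6.14, 5.37 and 5.14 under bevacizumab, and 5.71 and 5.11 under COMBO. Their arms overlapped. Among the protein partners, none of 16 spliceosomal proteins, 17 Integrator and 3′ end processing factors and 8 snRNA transcription factors was called in PLX4720 against vehicle. Their medians were 0.03, 0.30 and -0.04, and 2.28% of all genes were called.

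**Figure D2:**
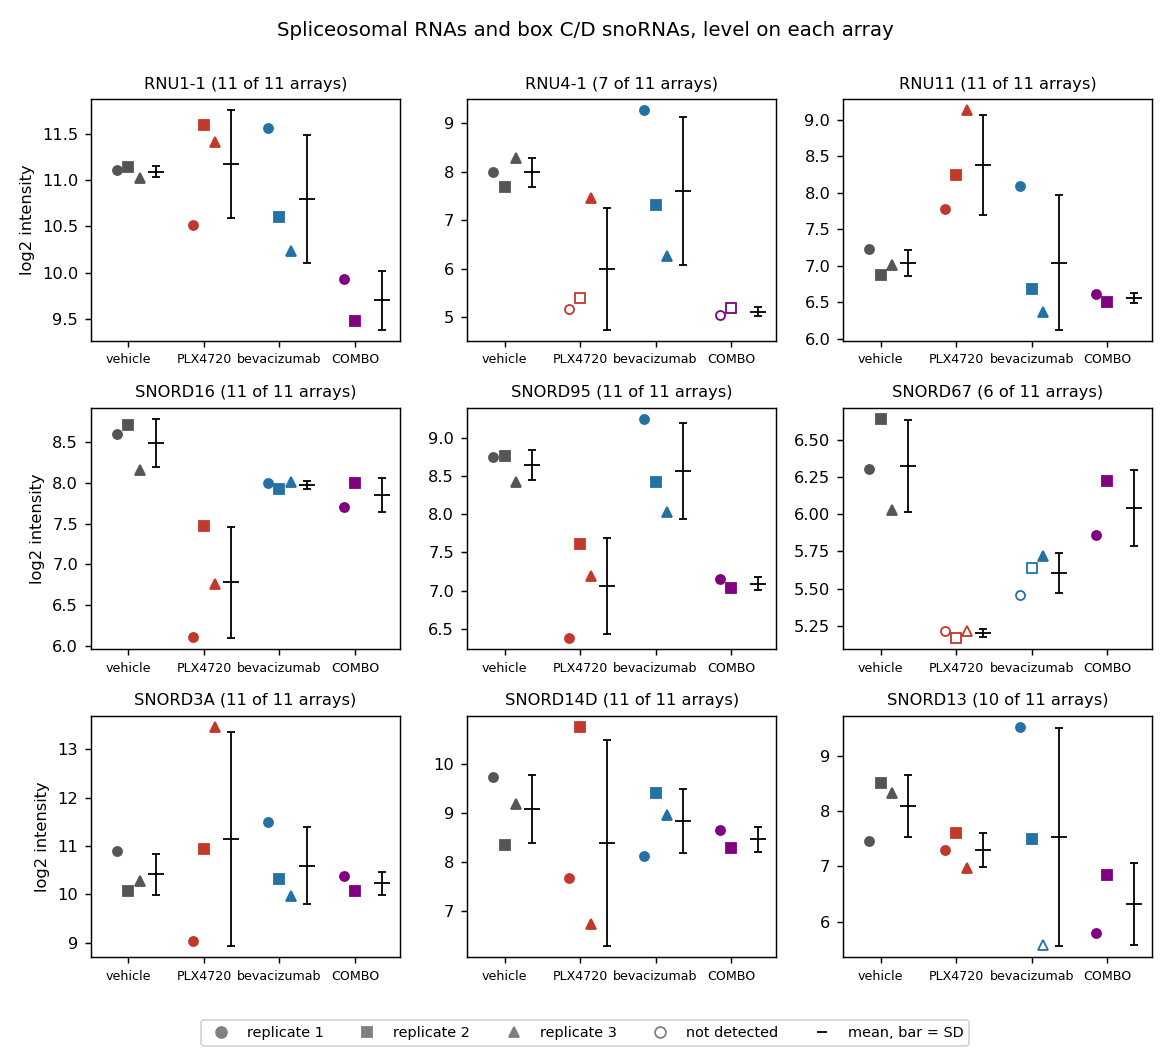
Level of 3 spliceosomal RNAs and 6 box C/D snoRNAs on each array (log2 intensity) by arm, with the arm mean and SD beside the points, open points where the probe was not detected, and the number of arrays with detection in each title. RNU1-1 is lowest on the COMBO arrays (9.93 and 9.48), SNORD16 is lowest on the PLX4720 arrays, and SNORD3A runs from 9.04 to 13.46 within the PLX4720 arm.

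Among the box C/D snoRNAs, 3 fell under PLX4720. SNORD16 had the smallest p-value of these, and lies in an intron of the ribosomal protein gene RPL4. It read 8.60, 8.71 and 8.15 under vehicle, 6.11, 7.47 and 6.76 under PLX4720, 8.00, 7.92 and 8.01 under bevacizumab, and 7.70 and 8.00 under COMBO. Every PLX4720 array lay below every other array, and SNORD16 fell by 1.71 ± 0.31 (3.27-fold, adjusted p = 0.0228). The call was lost in 5 of 24 alternatives, with an adjusted p of up to 0.116: without vehicle array 1, 2 or 3, without PLX4720 array 1, and in a fit of those 2 arms alone. RPL4 itself differed by -0.40 ± 0.19 (adjusted p = 0.332).

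SNORD95, in an intron of RACK1, was lower under PLX4720 and under COMBO. Its values were 8.75, 8.76 and 8.42 under vehicle, 6.38, 7.61 and 7.19 under PLX4720, 9.25, 8.42 and 8.03 under bevacizumab, and 7.15 and 7.03 under COMBO. The PLX4720 and COMBO arrays did not overlap the vehicle or the bevacizumab arrays. SNORD95 fell by 1.58 ± 0.36 under PLX4720 (3.00-fold, adjusted p = 0.0481), a call lost in 13 of 24 alternatives, with the highest adjusted p, 0.19, without vehicle array 2. COMBO differed from vehicle by -1.56 ± 0.40, which did not pass (adjusted p = 0.312).

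SNORD67, in CKAP5, was not detected on any PLX4720 array, so it passed the detection limit through arms in which it was higher. It read 6.30, 6.64 and 6.03 under vehicle, 5.22, 5.17 and 5.22 under PLX4720, 5.46, 5.64 and 5.72 under bevacizumab, and 5.86 and 6.22 under COMBO. The PLX4720 arrays were the lowest, and the arm was at least 1.45-fold below vehicle (-1.12 ± 0.22, adjusted p = 0.0279), a call lost in 11 of 24 alternatives, with the highest adjusted p, 0.138, without vehicle array 2. CKAP5 differed by 0.06 ± 0.39.

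Lower values under PLX4720 extended to most of the class. Of the 30 detected on all 11 arrays, 26 had a lower mean under PLX4720 than under vehicle (86.7%), with a median difference of -0.51, while 45.6% of all genes on all arrays were lower and their median was 0.05. Over the alternatives that median ran from -0.60 to -0.30, with 24 to 26 of the 30 lower. On single arrays the median over these 30, relative to the vehicle mean, was -0.74, -0.35 and -0.73 under PLX4720, -0.16, 0.23 and 0.22 under bevacizumab, and -0.07 and -0.29 under COMBO. All 3 PLX4720 arrays were lower than any other array. At an unadjusted p below 0.05, 27 of 88 box C/D snoRNAs tested were lower (30.7%, against 7% of all genes) and 0 were higher (against 8.89%). In 23 of the 88 all PLX4720 arrays lay below all vehicle arrays (26.1%, against 9.03% of all genes). Both counts take in RNAs that passed the detection limit through 1 arm only.

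Among further box C/D snoRNAs, chosen after their values were seen, 3 came near the threshold. SNORD32A, in RPL13A, read 7.65, 7.43 and 7.81 under vehicle and 5.05, 7.03 and 5.33 under PLX4720, a difference of -1.82 ± 0.43 (adjusted p = 0.0561). SNORD110, in NOP56, read 7.64, 7.92 and 7.43 under vehicle and 4.97, 6.77 and 6.15 under PLX4720, a difference of -1.70 ± 0.42 (adjusted p = 0.0651). SNORD96A, in RACK1 like SNORD95, read 9.95, 9.62 and 9.45 under vehicle and 7.48, 8.87 and 8.63 under PLX4720, a difference of -1.35 ± 0.33 (adjusted p = 0.0652). In all 3 the arms did not overlap, and PLX4720 array 2 lay closest to vehicle.

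The U3 and U14 snoRNAs take part in cutting the ribosomal RNA precursor, and their genes showed the widest spread within arms. SNORD3A, a U3 gene, read 10.89, 10.07 and 10.28 under vehicle, 9.04, 10.94 and 13.46 under PLX4720, 11.49, 10.32 and 9.97 under bevacizumab, and 10.39 and 10.06 under COMBO. The near copies SNORD3C and SNORD3D, whose probes may share its signal, read 8.13, 9.66 and 12.44 and 8.86, 10.82 and 13.35 on the same PLX4720 arrays. Their vehicle values were 10.00, 9.12 and 9.56 and 11.20, 10.05 and 10.79, their bevacizumab values 10.98, 9.11 and 8.59 and 11.90, 10.47 and 10.07, and their COMBO values 9.08 and 8.75 and 10.37 and 10.14. In each, PLX4720 array 1 was lower than vehicle and PLX4720 array 3 was the highest of all arrays. The differences of 0.74 ± 0.85, 0.52 ± 0.91 and 0.33 ± 0.89 were within that spread.

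SNORD14D, a U14 gene in the heat shock gene HSPA8, was high on another array. It read 9.74, 8.34 and 9.18 under vehicle, 7.67, 10.77 and 6.73 under PLX4720, 8.13, 9.42 and 8.97 under bevacizumab, and 8.65 and 8.28 under COMBO. SNORD14C, its near copy in the same host, read 9.70, 9.07 and 9.03 under vehicle and 7.98, 10.61 and 7.75 under PLX4720. The array on which both were highest, PLX4720 array 2, was also the one with the highest levels of the heat shock genes HSPA1A (13.48, against 11.20 and 11.30 on the other PLX4720 arrays) and HSPA1B (14.69, against 11.39 and 12.31). HSPA8 read 15.34, 15.13 and 14.87 on the PLX4720 arrays and was not highest there. Whether handling of that tumour played a part was not tested.

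SNORD13, the U13 RNA, which helps to acetylate the small ribosomal RNA, was spread in the bevacizumab arm instead. It read 7.46, 8.51 and 8.34 under vehicle, 7.30, 7.61 and 6.98 under PLX4720, 9.53, 7.50 and 5.57 under bevacizumab, and 5.79 and 6.85 under COMBO. Its COMBO arrays lay below all vehicle arrays, but the bevacizumab arm spanned all of them. RNU12 and SNORD118 had no named probe among those used here, so no value is given.

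Box H/ACA snoRNAs lay on both sides of vehicle. Of the 40 detected on all arrays, 21 had a lower mean under PLX4720 and the median difference was 0. SNORA74A, the one H/ACA snoRNA called, was detected on the 3 PLX4720 arrays alone and so entered through that arm. It read 4.93, 5.20 and 4.97 under vehicle, 6.12, 5.88 and 5.95 under PLX4720, 4.90, 5.14 and 5.03 under bevacizumab, and 5.07 and 4.78 under COMBO. PLX4720 was at least 1.25-fold above vehicle (0.95 ± 0.20, adjusted p = 0.0348), a call lost in 16 of 23 alternatives, with an adjusted p of up to 0.163 without vehicle array 3. MATR3 and SNHG4, whose spans hold it, differed by 0.21 ± 0.23 and -0.77 ± 0.37 (adjusted p = 0.711 and 0.343).

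**Figure D3:**
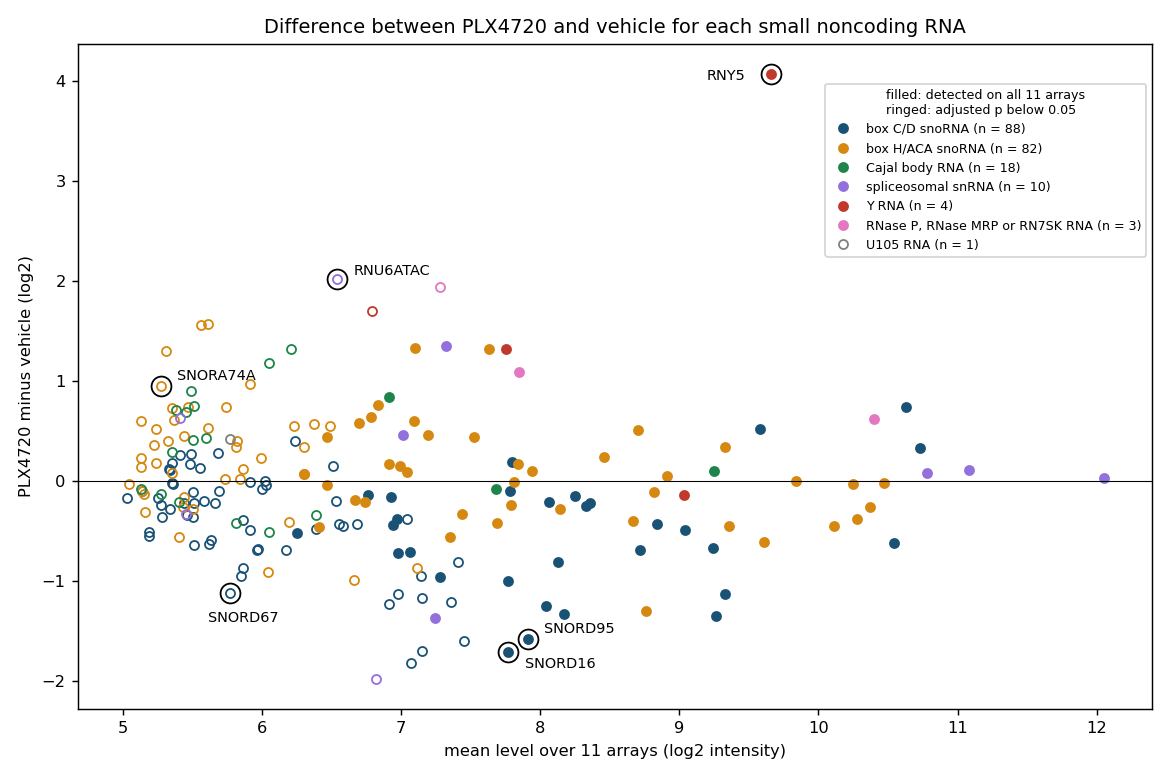
Difference between PLX4720 and vehicle (log2) against the mean level over 11 arrays (log2 intensity), 1 point per small RNA, coloured by class, filled where the RNA was detected on all arrays, with the 6 called RNAs ringed and named. RNY5 stands alone at 4.07, and box C/D snoRNAs lie mostly below the zero line while box H/ACA snoRNAs lie on both sides.

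Many small RNAs were highest on 1 array, PLX4720 array 3. Whether this was linked to a difference of that array over all probes was not tested. Over all probes, PLX4720 array 3 had the fewest detected of any array, 19767, against 20158 to 21952 on the others. It held the highest value for 15 of the 40 box H/ACA snoRNAs on all arrays (37.5%) and 3 of the 30 box C/D snoRNAs on all arrays (10%), against 19% of all genes on all arrays. It also did so for 6 of 10 spliceosomal RNAs (60%) and 8 of 18 Cajal body RNAs (44.4%), beside 17% of all genes tested, but those counts take in RNAs that passed the detection limit on that array alone. Among the 40 box H/ACA snoRNAs on all arrays, 12 stood more than 1 log2 unit above both other PLX4720 arrays there (30%, against 7.36% of all genes on all arrays), and among box C/D snoRNAs on all arrays 3 of 30 did (10%). SNORA80E, picked after its values were seen, read 7.45, 7.11 and 7.21 under vehicle, 8.09, 7.43 and 10.23 under PLX4720, 7.18, 7.14 and 7.20 under bevacizumab, and 7.52 and 7.37 under COMBO. SNORA12 and SCARNA16, picked likewise, reached 10.06 and 8.18 on that array, against 7.86 and 6.88, and 6.63 and 6.02, on the other PLX4720 arrays. With all arrays, none of the 3 passed the test against vehicle (adjusted p = 0.264, 0.395 and 0.168).

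**Figure D4:**
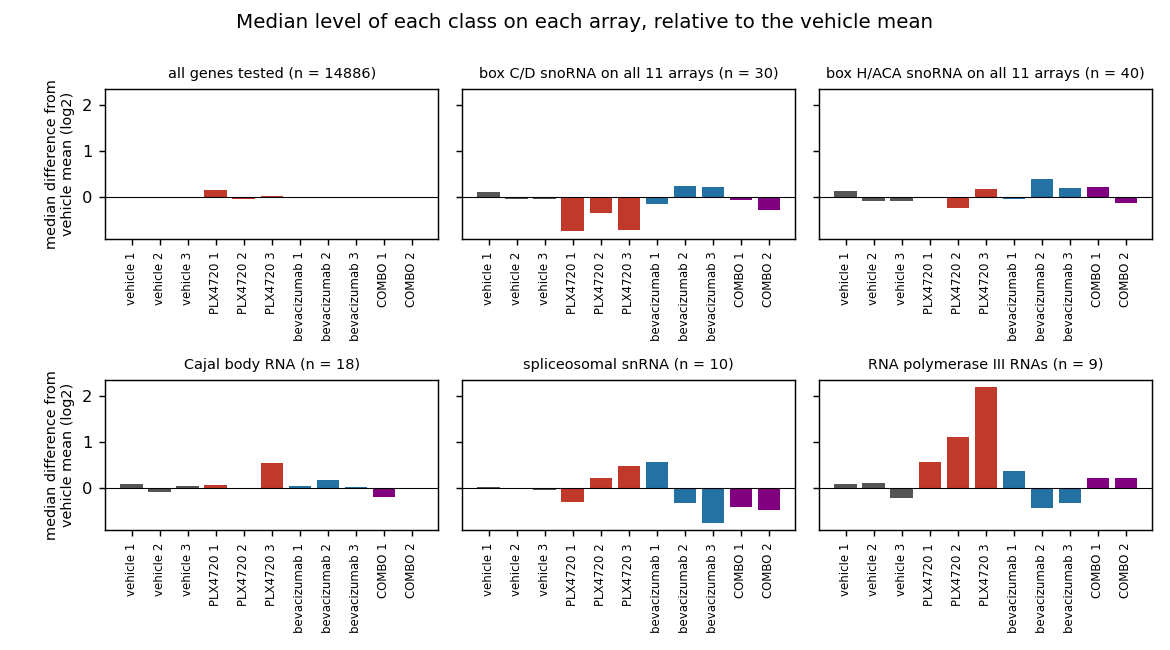
Median level of each class on each array relative to the vehicle mean (log2), 1 panel per class and 1 for all genes tested. The box C/D snoRNAs on all arrays are lowest on the PLX4720 arrays (-0.74, -0.35 and -0.73), and the RNAs made by RNA polymerase III are highest on PLX4720 array 3 (2.21).

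Cajal body RNAs were mostly dim, with 3 of 18 detected on all arrays. Their median relative to vehicle was 0.06, -0.03 and 0.55 on the PLX4720 arrays. SCARNA2, which guides modification of the U2 RNA, was detected on 2 arrays and read 5.96, 5.20 and 5.17 under vehicle, 5.15, 4.88 and 5.66 under PLX4720, 7.29, 5.21 and 5.13 under bevacizumab, and 4.76 and 4.99 under COMBO. It stood out on bevacizumab array 1 alone. Of the 11 factors of snoRNP assembly and Cajal bodies, none was called in PLX4720 against vehicle (median 0.03), beside 2.28% of all genes.

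Spread within the arms followed the same arrays. For the small RNAs detected on all arrays, the median SD was 0.24 under vehicle, 0.65 under PLX4720, 0.42 under bevacizumab and 0.20 under COMBO. For all genes detected on all arrays it was 0.17, 0.45, 0.33 and 0.13. The small RNAs were thus more variable than all genes in every arm, and both sets were most variable under PLX4720. Over all 206, the median SD under PLX4720 was 0.56 and dropped to 0.35 without PLX4720 array 3. A pooled SD over 1 was found for 9 of the 206 (4.37%, against 2.18% of all genes), led by SNORD3C (1.37), SNORD3D (1.35), SNORD3A (1.28), SNORD14D (1.25) and SNORD13 (1.15).

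Since most snoRNAs are cut from introns, each was set beside its host gene. Hosts were listed for 102 snoRNAs from textbook knowledge, all of which lie inside the host span in RefSeq, and 90 pairs with 47 hosts were measured. Under PLX4720 the hosts had a median difference of -0.09 from vehicle; IPO7 and SNX5 fell and none rose. For box C/D snoRNAs on all arrays the snoRNA difference minus that of the host had a median of -0.50 (16 pairs), and for box H/ACA snoRNAs a median of 0.22 (23 pairs). Over all 46 box C/D pairs, 31 snoRNAs lay below their host and the median was -0.34, against 16 of 44 box H/ACA pairs with a median of 0.18. The box C/D median was smaller in size, -0.11, with the authors' cubic spline values or with no background correction, and -0.08 with no detection filter, but -0.68 with the arrays scaled to 1 median. The median pooled SD was 0.42 for the snoRNAs and 0.20 for the hosts. No strand or transcript information separates a snoRNA probe from the host intron, and snoRNAs of 1 host share its transcript.

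Within single hosts, box C/D snoRNAs seen on at least 9 arrays often lay lower than the host. In NOP56, which encodes a core protein of box C/D particles, 3 such snoRNAs differed by -1.70 to -0.43 while the host read 13.03, 12.85 and 12.93 under vehicle and 13.16, 13.46 and 12.60 under PLX4720 (0.14 ± 0.24). In RPL13A, 3 snoRNAs differed by -1.82 to -0.48 beside -0.18 ± 0.18 for the host, while SNORD35A, seen on 7 arrays, differed by -0.01. In the noncoding host SNHG1, 4 differed by -1.60 to -0.43 beside -0.57 ± 0.27. In RPL7A, 2 differed by -0.81 and -0.67 beside -0.07. ZFAS1 went the other way, with -0.20 and -0.14 for 2 snoRNAs, and -0.11 for SNORD12B on 2 arrays, beside -0.56 for the host.

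The 2 hosts that fell were not matched by their snoRNAs in the same way. SNX5, a sorting nexin, fell by 2.10 ± 0.45 (adjusted p = 0.0388), and its SNORD17 differed by -1.25 (adjusted p = 0.259). IPO7, an importin that carries ribosomal proteins into the nucleus, read 9.46, 9.68 and 9.92 under vehicle and 7.11, 6.97 and 6.27 under PLX4720, a fall of 2.91 ± 0.27 (adjusted p = 0.00109). SNORA23, inside IPO7, was detected on 3 arrays and read 5.71, 5.37 and 5.52 under vehicle and 5.18, 5.44 and 8.20 under PLX4720. The rise lay on PLX4720 array 3, where IPO7 was lowest.

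**Figure D5:**
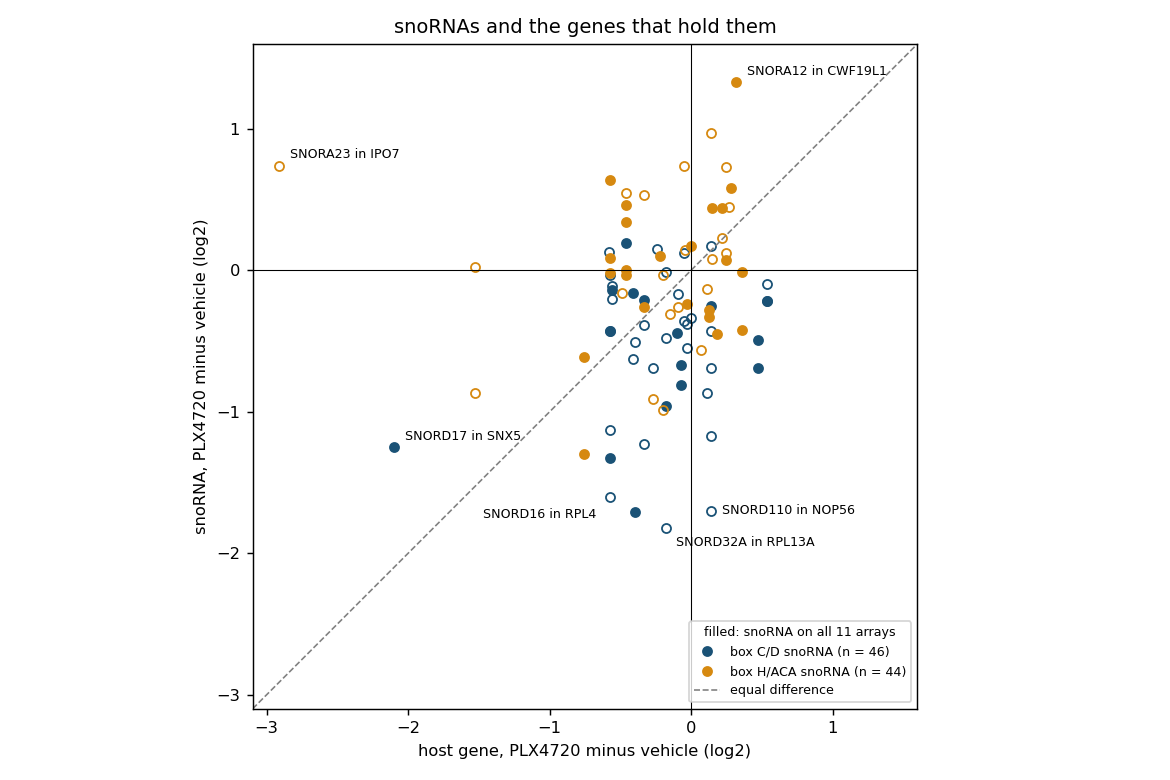
Difference between PLX4720 and vehicle (log2) of 90 snoRNAs against that of the gene whose intron holds each, with box C/D and box H/ACA snoRNAs in different colours, filled where the snoRNA was detected on all arrays, and a dashed line of equal difference. Most hosts lie near 0 while box C/D snoRNAs spread below the line, down to SNORD32A at -1.82. IPO7 and SNX5 lie far to the left.

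No gene listed as a protein partner of the particles or as a noncoding host passed the test. None of the 4 core proteins of box C/D particles (median -0.20), the 4 of box H/ACA particles (-0.16) or the 7 of the 7SK complex and P-TEFb (0.04) was called in PLX4720 against vehicle. The same held for the 16 noncoding snoRNA hosts (-0.19). With 2.28% of all genes called, 0 calls are near the background for lists this short, here and above. Over all these lists the count of called genes was 0 with all arrays. It was 3 without PLX4720 array 2 (beside 5.64% of all genes) and 1 without PLX4720 array 3 (beside 4.88%).

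Bevacizumab changed no small RNA past the threshold. By limma, 0 of 206 were called, as were 0% of all genes, and 7 had an unadjusted p below 0.05 (3.40%, against 2.37% of all genes). The smallest p-values were those of SNORD67, with -0.72 ± 0.22, RNY5, with -1.48 ± 0.52, and SNORA29, with 0.64 ± 0.24 (adjusted p = 1 for each). SNORA29 was detected on 3 arrays and read 5.07, 5.29 and 4.81 under vehicle, 5.83, 6.15 and 5.40 under PLX4720, 5.66, 5.55 and 5.88 under bevacizumab, and 5.37 and 5.20 under COMBO. The vehicle arrays of RNY5 overlapped its bevacizumab arrays, while SNORD67 and SNORA29 did not overlap. Box C/D snoRNAs on all arrays had a median of 0.12 and box H/ACA snoRNAs 0.18.

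COMBO against vehicle also gave 0 of 206 calls, beside 0.141% of all genes, and 10 at an unadjusted p below 0.05 (4.85%, against 5.23%). The smallest p-values belonged to SNORD95 and to the U4 and U1 genes RNU4-1 and RNU1-1, with the differences given above. The arms compared with vehicle share its 3 arrays, so these differences are given side by side: the median for box C/D snoRNAs on all arrays was -0.51 under PLX4720, 0.12 under bevacizumab and -0.16 under COMBO, and that for the RNAs made by RNA polymerase III was 1.32, -0.11 and 0.15.

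Set directly against PLX4720, COMBO had 0 of 206 calls, beside 0.00672% of all genes, with 36 at an unadjusted p below 0.05 (17.5%, against 7.28% of all genes). Without PLX4720 array 2 the count of calls was 10 (4.85%, beside 1.63% of all genes). RNY4 (-2.59 ± 0.44, adjusted p = 0.499), RNY5 (-2.88 ± 0.58, adjusted p = 0.499) and RNU6ATAC (-2.13 ± 0.43, adjusted p = 0.505) had the smallest p-values, and in each both COMBO arrays lay below all PLX4720 arrays. Of the 9 RNAs made by RNA polymerase III, 8 were lower under COMBO than under PLX4720, with a median of -1.31 beside -0.07 for all genes. Box C/D snoRNAs were the reverse: 26 of the 30 on all arrays were higher under COMBO, with a median of 0.31 beside -0.05, and 15 of 88 were higher at an unadjusted p below 0.05 (17%, against 3.06% of all genes). This comparison and that of PLX4720 with vehicle share the PLX4720 arrays, so the opposite directions are not separate evidence.

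COMBO against bevacizumab gave 0 of 206 calls, beside 0.363% of all genes, and 12 at an unadjusted p below 0.05 (5.83%, against 7.41%). RNY5 was 2.67 ± 0.58 higher under COMBO (adjusted p = 0.104), a difference that was called in 4 of 24 alternatives, among them leaving out bevacizumab array 1. SNORD96B, detected on 6 arrays, read 6.70, 5.69 and 5.79 under vehicle, 5.12, 5.03 and 5.19 under PLX4720, 6.87, 6.44 and 6.73 under bevacizumab, and 5.56 and 5.27 under COMBO. It was at least 1.97-fold lower under COMBO than under bevacizumab (-1.26 ± 0.31, adjusted p = 0.159), and SNORD95 differed by -1.48 ± 0.40 (adjusted p = 0.216).

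Whether the drugs together departed from the sum of their single differences was tested as an interaction. None of the 206 passed, beside 0.00672% of all genes, and 19 had an unadjusted p below 0.05 (9.22%, against 5.54%); without PLX4720 array 2, 1 passed (beside 0.202% of all genes). The smallest p-values were for SNORD67 (1.55 ± 0.32, adjusted p = 0.84), RNY4 (-2.48 ± 0.59, adjusted p = 0.84) and SNORD48 (1.69 ± 0.42, adjusted p = 0.865). SNORD48, detected on 5 arrays, read 5.48, 5.78 and 5.81 under vehicle, 5.33, 5.01 and 4.86 under PLX4720, 4.91, 5.51 and 6.01 under bevacizumab, and 6.53 and 6.56 under COMBO, so its COMBO arrays were the highest of all. Over the 4 arms at once, 9 of 206 passed the moderated F test at an adjusted p below 0.1 (4.37%, against 2.81% of all genes). That count was 24 without PLX4720 array 2 (11.7%, beside 6.68% of all genes). It was 3 to 5 without PLX4720 array 1 or any one of the vehicle arrays, bevacizumab arrays 2 and 3 or the COMBO arrays (1.46% to 2.43%, beside 1.39% to 1.84%). By the rule of the study's methods, the members called numbered 0 for bevacizumab (beside 0.181% of all genes), 4 for COMBO against vehicle (beside 1.56%), 14 for COMBO against PLX4720 (beside 1.15%), 6 for COMBO against bevacizumab (beside 2.38%) and 9 for the interaction (beside 1.05%).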

How the data were processed

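The authors hybridised biotin-labelled RNA from 11 tumours to Illumina HumanHT-12 v4 arrays and exported them from GenomeStudio 2011.01. They deposited a table of unnormalized probe intensity with a detection p-value for each array, used here, and the cubic spline normalized intensity of the same arrays, used as an alternative; 0 columns of per-sample values were left unused. The intensities were background-corrected with limma 3.58.1 (R 4.3.3; normexp, background from the 769 negative controls implied by the detection p-values, offset 16), quantile normalized and log2 transformed. Signal over background, at 24.7 to 40.1 for an upper percentile of the probes on each array, and the number of arrays limit the precision. Probes with 1 current symbol and a detection p-value below 0.05 on at least 1 array were kept, with the brightest probe per gene. limma's lmFit and eBayes were run on all 14886 genes with 1 spread over the 4 arms, and p-values were adjusted by Benjamini-Hochberg over all genes; a gene was called at an adjusted p below 0.05. Fold changes of dim probes are understated. Where a probe was undetected on all arrays of a group, its fold is a lower bound against the dimmest detected level. The labels call the samples replicates of a treatment and the study's methods call them biological; p-values measure the spread between these arrays.

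Members and lists were chosen with earlier results of these data known. Values were given for members called in any contrast, the 5 brightest, the 5 with the largest pooled SD, 21 looked up by name (19 tested), and the 3 smallest p-values in contrasts without a call. Alternatives changed the normalization, background, offset, filter, probe choice, weights, arrays fitted, call rule and single arrays. The fits recovered known changes on simulated data, in which each gene had the same SD in every arm and only PLX4720 was shifted. In the real data the median SD over all genes tested was 0.19 under vehicle and 0.45 under PLX4720. The simulation therefore cannot show how the fits do with arms of unequal spread. Figures were drawn with matplotlib 3.10.9.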

Additional observations from a re-analysis of the deposited data

How the results depend on the processing

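The count of small RNAs called under PLX4720 (6) was 3 with the authors' cubic spline values (1.46%, beside 2.22% of all genes). It was 1 with only the arrays of both arms (0.485%, beside 0.302%). A rule of log2 change of at least 1 and unadjusted p below 0.01 gave 12 (5.83%, beside 4.76%). With PLX4720 array 3 and bevacizumab array 1 left out together the count was 16 (7.77%, beside 8.39%). Leaving out single arrays gave 1 to 26 (beside 0.43% to 5.64%). Array weights gave 1 call for bevacizumab (beside 0.242% of all genes), 6 for COMBO against vehicle (2.91%, beside 2.7%), 7 for COMBO against bevacizumab (3.4%, beside 5.79%) and 30 in the F test (14.6%, beside 9.95%), where the count had been 9. The fold rule gave 4 for COMBO against vehicle (1.94%, beside 1.56% of all genes) and 14 for COMBO against PLX4720 (6.8%, beside 1.15%). It gave 6 for COMBO against bevacizumab (2.91%, beside 2.38%) and 9 for the interaction (4.37%, beside 1.05%). The arrays of both arms alone gave 5 for COMBO against vehicle (2.43%, beside 1.65% of all genes). Leaving out that pair of arrays gave 2 for COMBO against vehicle (0.971%, beside 0.457%) and 1 for COMBO against bevacizumab (0.485%, beside 0.638%). It gave 19 in the F test (9.22%, beside 7.19%). Leaving out single arrays gave 0 to 0 for bevacizumab and for COMBO against vehicle, 0 to 10 against PLX4720, 0 to 1 against bevacizumab and for the interaction, and 3 to 24 in the F test. The highest counts against PLX4720, against bevacizumab, for the interaction and in the F test stood beside 1.63%, 0.255%, 0.202% and 6.68% of all genes. The median SD under PLX4720 (0.56) was 0.29 with cubic spline values and with no background correction, 0.38 with an offset of 50, 0.34 with no detection filter, 0.35 without that pair, and 0.35 to 0.56 without single arrays. The median small RNA under PLX4720 (-0.10) was -0.04 with cubic spline values, -0.03 with median scaling or no filter, -0.17 for those on at least 3 arrays, and -0.11 to -0.07 without single arrays. The gap between box C/D snoRNA and host (-0.34) was -0.11 with cubic spline values or no background correction, -0.68 with median scaling, -0.08 with no filter, and -0.39 to -0.23 without single arrays. Listed partner and host genes called (0, beside 2.28% of all genes) numbered 1 with every probe (beside 2.43%) and 6 without that pair (beside 8.39%). Without single arrays they numbered 0 to 3, the highest beside 5.64%. The cause of these shifts was not tested.

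With the replicate number as a block, 2 small RNAs were called under PLX4720 (RNY5 and SNORD16; 0.971%, beside 1.28% of all genes) and 4 in the F test (1.94%, beside 1.75%). No clear pairing by number was seen: 3 of 15 same-numbered pairs had deviations correlated over 0.1 (-0.47 to 0.27), and 4 of 11 arrays were closest to their own number. With 2 or 3 arrays an arm, this check cannot exclude pairing. Selected contrasts of some of the named small RNAs, not all, were followed under 24 alternatives. Of these 764 values, 667 kept their direction and side of the threshold, 50 lost a call, 47 gained one and 0 reversed. RNY3 was not among those followed, and it went from lower to higher under PLX4720 with median scaling.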
